A study of Mus musculus with 5 samples.

Results

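Dnah8 gave rise to more listed circular RNAs than any other host gene in the mouse testis libraries examined here. All circRNAs whose deposited host gene symbol is Dnah8 were taken, which were 51 of 11957 circRNAs in the table. The table names 3496 host genes with a median of 2 circRNAs each, and the host with the next highest number, Vps13b, had 41. The gene was chosen by that number, which is itself read from the table, so the number and the levels are a description and carry no test. The comparison of treated with control testes was not used in the choice, although earlier results of these data were known when it was made.

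The treated mice were male C57BL/6J animals aged 10 weeks that received triptolide, a diterpenoid of the vine Tripterygium wilfordii, by gavage at 50 µg per kg per day. The control mice were males of the same strain and age that received saline. Testes were collected after 35 days from 6 mice per group, and 3 triptolide and 2 control libraries are analysed here. Whether a library holds RNA of 1 animal or of several is not in the labels. The p-values therefore reflect the spread among these libraries, which may be technical.

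Dnah8 encodes a heavy chain of the outer arm dynein, the ATP-driven motor that bends the axoneme of the sperm tail, and in the mouse its expression is known mainly from the testis. A circular RNA forms when the donor splice site at the end of an exon is joined backwards to an acceptor splice site at the start of the same or an earlier exon. The product has no free ends, and sequencing recognises it by reads across that back-splice junction. Each circRNA below is named by its acceptor and its donor on chromosome 17, plus strand, in the coordinates of the deposited table. It is also named by the distance of both from the first acceptor used, in kilobases (kb).

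The level of a circRNA was deposited as SRPBM, a count of back-splice junction reads scaled by library size. In these libraries 1 read was worth 9.567, 8.859 and 8.709 SRPBM in triptolide A, B and C, against 8.797 and 8.286 SRPBM in controls 1 and 2. Over all circRNAs the libraries held 32804, 44318 and 35323 junction reads in triptolide A, B and C, against 39999 and 43680 in controls 1 and 2. Control 1 stood apart from the other libraries, including control 2. Over circRNAs with at least 20 reads in a pair of libraries, the chi-square per degree of freedom of the reads was 7.32 to 7.81 in the 4 pairs with control 1 and 1.97 to 2.48 in the 6 other pairs. What a listed 0 stands for is not given, and control 1 also had more of them among abundant circRNAs. Among circRNAs with at least 5 reads in each of the other 4 libraries, control 1 listed 0 for 142 of 896 (15.8%), while the share was between 1.5% and 2.66% in the other libraries. Exactly 1 Dnah8 circRNA was among those 142, the one with acceptor 30635321 and donor 30644708. Values without control 1 are therefore given beside the comparisons of totals, of shares and of the circles on which the results turn. Marker genes of cell types were looked up as circRNA hosts. Of 11 spermatocyte markers, 10 hosted circRNAs, as did 4 of 14 spermatid and 2 of 5 spermatogonial markers. None of 6 Sertoli, 5 Leydig, 2 peritubular or 5 epididymal markers did. A gene can be expressed without a listed circRNA, so these absences do not show that a cell type was missing. Of 7 markers of multiciliated cells of the efferent ducts, 2 hosted circRNAs, Dnah9 with 69 SRPBM in triptolide B alone and Dnah11 with 35 SRPBM in control 1 alone. Of 5 blood and immune markers, Adgre1 did, with up to 43 SRPBM in triptolide libraries and up to 17 SRPBM in controls.

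The Dnah8 circles lay along 239805 bases, between the first acceptor at 30635321 and the last donor at 30875125. They used 21 acceptors and 36 donors, so that 47 of the 51 shared at least 1 end with another Dnah8 circle. The distance between acceptor and donor was between 756 and 143854 bases, with a median of 14080 bases. This distance includes introns, and the length of the circle itself is not known from the table. Circles started mostly in the 5′ part of that stretch, and 17 of the 19 in the first 30 kb used 1 acceptor, 30635321. In consecutive windows of 30 kb from the first acceptor, 19, 9, 9, 3, 5, 4, 0 and 2 circles had their acceptor. Reads were distributed otherwise, with 242, 97, 839, 18, 55, 195, 0 and 18 junction reads over all 5 libraries in the same windows.

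**Figure D1:**
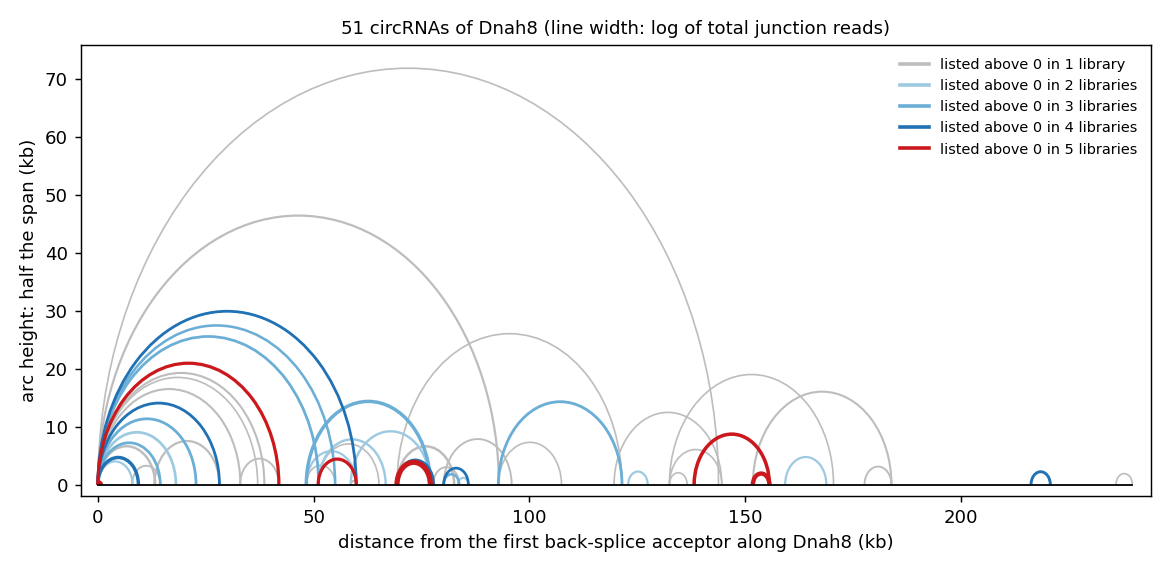
Map of the 51 Dnah8 circRNAs, each an arc from acceptor to donor, with distance from the first acceptor in kilobases on the horizontal axis and arc height in kilobases on the vertical, colour for the number of libraries that list the circle and line width for the log of its reads. The fan of 17 circles leaves the acceptor at 0 kb, and the circle between 69.3 and 77.1 kb carries the most reads.

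In 7 places an acceptor was followed within 300 bases by a donor of another circle, at a distance of 63 to 241 bases. The closest pair was the acceptor 30713034 with the donor 30713096, 63 bases in all. The widest was the acceptor 30718827 with the donor 30719067, 241 bases in all. No exon annotation of the gene was used, and the table itself does not say that the bases between such ends form an exon.

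A single acceptor, 30635321, was shared by 17 circles, which joined it to 17 donors between 30636076 and 30779174. Its circles had 29, 60 and 35 reads in triptolide A, B and C, against 60 and 50 reads in controls 1 and 2. The shortest of them reached 756 bases, and the longest, at 143854 bases, was also the longest Dnah8 circle of all. No circle dominated the fan. Its most abundant member held 56 of 234 reads, or 23.9%. That member, with donor 30636076 (0.0 to 0.8 kb), was listed at 95, 88 and 52 SRPBM in triptolide A, B and C, against 184 and 74 SRPBM in controls 1 and 2. Control 1 was the highest, and the groups overlapped.

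The next in the fan, with donor 30644708 (0.0 to 9.4 kb), was listed at 66, 150 and 52 SRPBM in triptolide A, B and C, against 0 and 66 SRPBM in controls 1 and 2. Only control 1 listed it at 0. The circle with donor 30677274 (0.0 to 42.0 kb) was listed at 28, 35 and 52 SRPBM in triptolide A, B and C, against 26 and 91 SRPBM in controls 1 and 2. It was present in every library and highest in control 2. The circles with donors 30663495 and 30690316 were sparser. The first was at 19, 35 and 0 SRPBM in triptolide A, B and C, against 35 and 24 SRPBM in controls 1 and 2. The second was at 28, 0 and 0 SRPBM in triptolide A, B and C, against 35 and 16 SRPBM in controls 1 and 2. Both had a library listed at 0 among the triptolide libraries and none among the controls. The longest of the fan, which reached donor 30779174, was listed in triptolide B alone, at 17 SRPBM.

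The most abundant Dnah8 circRNA started 69.3 kb beyond that acceptor and joined donor 30712386 to acceptor 30704655 over 7732 bases (69.3 to 77.1 kb). It was listed at 985, 1630 and 1132 SRPBM in triptolide A, B and C, against 1829 and 1209 SRPBM in controls 1 and 2. These values correspond to 103, 184 and 130 reads in the triptolide libraries, with exact 95% Poisson intervals of 84.1 to 125, 158 to 213 and 109 to 154. In controls 1 and 2 they correspond to 208 and 146 reads, with intervals of 181 to 238 and 123 to 172. Among all circRNAs it ranked 22, 15 and 20 in triptolide A, B and C, against 12 and 23 in controls 1 and 2. The order of the libraries did not follow the groups: control 1 was the highest, triptolide B came next and triptolide A was the lowest. Such intervals cover counting error only, since junction reads without molecular identifiers are not independent molecules.

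This circle held about as many reads as all other Dnah8 circles together. Its share of Dnah8 junction reads was 49.0%, 51.7% and 55.1% in triptolide A, B and C, with Wilson 95% intervals of 42.4% to 55.8%, 46.5% to 56.8% and 48.7% to 61.3%. In controls 1 and 2 the share was 59.3% and 46.9%, with intervals of 54.0% to 64.3% and 41.5% to 52.5%. The control values lay farther apart than those of the triptolide libraries. Its acceptor and its donor were each used by other circles, which were all far rarer. Of the 810 reads at acceptor 30704655, used by 4 circles, 95.2% belonged to it. Of the 818 reads at donor 30712386, used by 3 circles, it held 94.3%.

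The circle that shares its acceptor but runs on to donor 30713096 (69.3 to 77.8 kb) was listed at 0, 35 and 26 SRPBM in triptolide A, B and C, against 70 and 116 SRPBM in controls 1 and 2. Both controls lay above every triptolide library. The circles that share its donor begin upstream. One of them, from acceptor 30683631 (48.3 to 77.1 kb), was at 143, 0 and 69 SRPBM in triptolide A, B and C, against 0 and 140 SRPBM in controls 1 and 2. It was thus listed at 0 in a library of each group while standing near 140 SRPBM in another. The other, from acceptor 30693949 (58.6 to 77.1 kb), was at 28, 35 and 0 SRPBM in triptolide A, B and C and listed at 0 in both controls.

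The second most abundant circle in every library lay farther along the gene, between acceptor 30787145 and donor 30790982 (151.8 to 155.7 kb, 3838 bases). It was listed at 258, 513 and 200 SRPBM in triptolide A, B and C, against 307 and 331 SRPBM in controls 1 and 2. Both controls lay within the range of the triptolide libraries. The leading circle exceeded it 3.82-fold, 3.18-fold and 5.66-fold in triptolide A, B and C, against 5.96-fold and 3.65-fold in controls 1 and 2. The order of abundance was stable for these first places only. The circle in the next place differed between libraries, and 4 different circles held it in the 5 libraries. A circle that ends at the same donor from an earlier acceptor, 30773529 (138.2 to 155.7 kb), was at 66, 88 and 121 SRPBM in triptolide A, B and C, against 70 and 41 SRPBM in controls 1 and 2. It was listed in every library, and the groups overlapped.

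**Figure D2:**
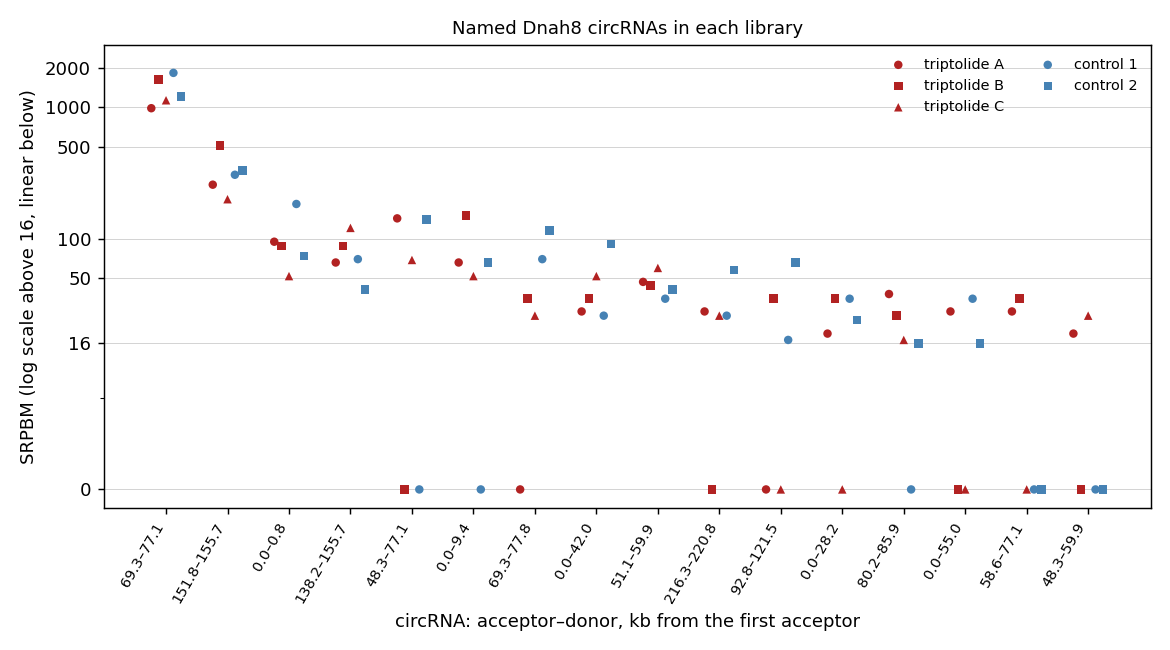
SRPBM of the 16 Dnah8 circRNAs given by library, on an axis that is logarithmic above 16 and linear below, with 1 point per library, red for triptolide and blue for control. The leading circle lies between 985 and 1829 SRPBM in all 5 libraries, and many others include libraries listed at 0.

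Among donors, 30695216 served the most circles, 4, with 49 reads in all. Its most abundant circle began at acceptor 30686383 (51.1 to 59.9 kb) and was listed at 47, 44 and 60 SRPBM in triptolide A, B and C, against 35 and 41 SRPBM in controls 1 and 2. All triptolide libraries lay above both controls, by a margin of 3 SRPBM, which is less than 1 read. Another, from acceptor 30683631 (48.3 to 59.9 kb), was at 19, 0 and 26 SRPBM in triptolide A, B and C and listed at 0 in both controls. Acceptors 30683631, 30686383, 30715480 and 30767799 served 3 circles each, with 47, 35, 22 and 6 reads in all. The most abundant circle at 30715480, with donor 30721198 (80.2 to 85.9 kb), was at 38, 26 and 17 SRPBM in triptolide A, B and C, against 0 and 16 SRPBM in controls 1 and 2. The groups did not overlap, with triptolide C and control 2 at 2 reads each and differing only through the scaling of the libraries.

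Farther along, the circle between acceptor 30728163 and donor 30756812 (92.8 to 121.5 kb) was listed at 0, 35 and 0 SRPBM in triptolide A, B and C, against 17 and 66 SRPBM in controls 1 and 2. The circle between acceptor 30851628 and donor 30856094 (216.3 to 220.8 kb) was at 28, 0 and 26 SRPBM in triptolide A, B and C, against 26 and 58 SRPBM in controls 1 and 2. The groups overlapped for both. The last circle, between 30871312 and 30875125, was listed in triptolide A alone, at 19 SRPBM.

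Most of the 51 circles were rare. Over the 5 libraries together, 33 had at most 10 reads. Of all, 6 were listed in every library, 6 in exactly 4, 7 in 3, 8 in 2 and 24 in a single library. Those 24 had 2 to 8 reads each and were distributed as 3, 6 and 1 in triptolide A, B and C, against 6 and 8 in controls 1 and 2. Of the Dnah8 circles 47.1% were listed in 1 library and 11.8% in all 5, against 54.4% and 11.7% of all circRNAs in the table. Listed in triptolide libraries alone were 14 Dnah8 circles (27.5%), beside 36.7% of all circRNAs, and 14 others (27.5%) were listed in control libraries alone, beside 25.1% of all. With 3 triptolide and 2 control libraries these shares are not comparable between the groups. The number listed per library was 19, 26 and 20 in triptolide A, B and C, against 24 and 26 in controls 1 and 2.

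No difference between triptolide and control testes was detected for Dnah8 circRNAs as a whole. Their summed level was 2000, 3141 and 2048 SRPBM in triptolide A, B and C, against 3076 and 2565 SRPBM in controls 1 and 2. Triptolide B was the highest library of all and the other triptolide libraries were the lowest. The mean was 2396 ± 645 SRPBM in triptolide libraries (SD, n = 3) and 2820 ± 361 SRPBM in controls (SD, n = 2), a difference of -424 SRPBM (two-sided exact permutation p = 0.6). An assignment of 3 against 2 libraries allows no p below 0.1. In the fit of all 2342 host genes with limma, on log2(summed SRPBM + 16), the change of Dnah8 was -0.26 ± 0.28 (SE). The unadjusted p was 0.38 and the limma adjusted p 0.90. Without control 1 the change was -0.13, with a limma adjusted p of 0.96. With every library included, the 95% interval of the change of Dnah8 was 0.537-fold to 1.3-fold. A change of any size within it remains possible, and the interval is not a limit of detection. Of all hosts tested by limma, 0% passed the adjusted threshold of 0.05, and 6.28% had an unadjusted p under 0.05. In bulk tissue, fewer cells that make a circRNA and less of it per cell cannot be told apart.

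The remaining totals of Dnah8 overlapped between the groups as well. Dnah8 held 0.641%, 0.806% and 0.67% of all circRNA SRPBM in triptolide A, B and C, against 0.88% and 0.714% in controls 1 and 2. For this share the two-sided exact permutation p was 0.4. The difference was -0.0913 percentage points, and -0.00833 without control 1. Without the leading circle the sum was 1015, 1511 and 916 SRPBM in triptolide A, B and C. In controls 1 and 2 it was 1247 and 1356 SRPBM (two-sided exact permutation p = 0.5). The difference was -154 SRPBM, and -209 SRPBM without control 1. The number of circles listed averaged 21.7 ± 3.79 in triptolide libraries (SD, n = 3) and 25 ± 1.41 in controls (SD, n = 2). The two-sided exact permutation p was 0.4. The difference was -3.33 circles, and -4.33 without control 1. Counting only circles with at least 3 reads, the numbers were 15, 22 and 16 in triptolide A, B and C, against 19 and 17 in controls 1 and 2. Of the 14 spermatid markers, 4 were circRNA hosts, Prm2, Crem, Odf2 and Spata16, and the other 10 hosted none. The 4 summed to 639 to 1143 SRPBM in triptolide libraries and 1178 to 1351 SRPBM in controls, without overlap. Among all circRNAs tested, 10.5% were lower in triptolide libraries without overlap. The share among sums of this kind was not computed, so nothing is read from that order. The 10 listed spermatocyte markers summed to 2386 to 2878 SRPBM in triptolide libraries and 2751 to 3398 SRPBM in controls. Their part in the Dnah8 values was not tested.

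**Figure D3:**
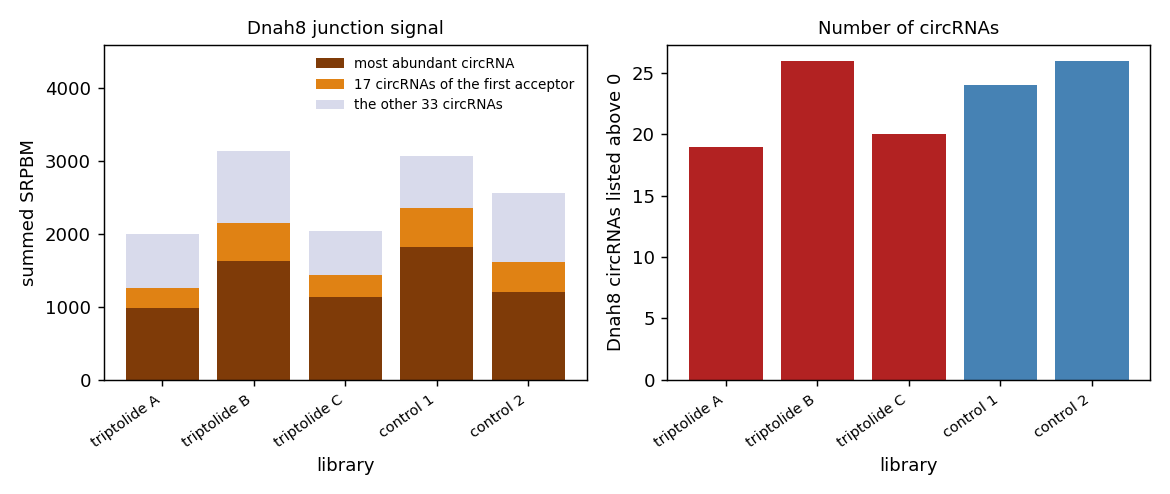
Left, the summed SRPBM of Dnah8 in each library, stacked as the most abundant circle, the 17 circles of the first acceptor and the other 33. Right, the number of Dnah8 circRNAs listed above 0, where triptolide libraries (19 to 26) overlap with controls (24 and 26).

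The use of the shared ends did not differ detectably either. Acceptor 30635321 carried 13.7%, 16.8% and 14.7% of the Dnah8 SRPBM in triptolide A, B and C, against 17% and 16% in controls 1 and 2. The mean was 15.1% ± 1.58 in triptolide libraries (SD, n = 3) and 16.5% ± 0.707 in controls (SD, n = 2). The two-sided exact permutation p was 0.3. The difference was -1.43 percentage points, and -0.933 without control 1. Donor 30695216 carried 5.2%, 1.4% and 5.47% in triptolide A, B and C, against 1.69% and 4.48% in controls 1 and 2 (two-sided exact permutation p = 0.6). Adjusted by Benjamini-Hochberg over these 2 ends, both exact permutation p values were 0.6. The sign of the donor difference, 0.938 percentage points higher in triptolide libraries, turned without control 1, to -0.457 percentage points. The leading circle carried 52.1% ± 3.06 of the sum in triptolide libraries (SD, n = 3) and 53.3% ± 8.77 in controls (SD, n = 2). The two-sided exact permutation p was 0.9. The difference of -1.17 percentage points turned to 5.03 without control 1.

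For single circles, 27 of the 51 were listed in at least 2 libraries and were tested by limma on log2(SRPBM + 16) together with all such circRNAs, 5457 in number. Of the 27, 4 were listed in triptolide libraries alone and passed that filter through them only. None of the 27 passed an adjusted p of 0.05, with limma adjusted p values of 0.68 to 0.99, and 0% of all circRNAs tested did. On reads recovered from the SRPBM, edgeR and DESeq2 called 0 of them as well. An unadjusted p under 0.05 was reached by 1 of the 27 in limma, where 6.6% of all circRNAs tested reached it. It was reached by 0 of the 27 in edgeR and by 0 in DESeq2, where 2.36% and 0.605% of all did. Of the 27, 11 had a log2 fold change above 0 and 16 below. The 11 include the 4 listed in triptolide libraries alone, whose sign was fixed by the filter. With these included the median was -0.09, beside a median of -0.06 over all circRNAs tested. The libraries of the groups did not overlap for 2 circles that were higher in triptolide libraries and 1 that was lower. Among all circRNAs tested, 6.78% were higher without overlap and 10.5% lower, and read against these shares neither count is a result about Dnah8.

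The circle with the smallest p was the one from 69.3 to 77.8 kb, which shares the acceptor of the leading circle. Its log2 fold change was -1.71 ± 0.69 (SE), with an unadjusted p of 0.04 and a limma adjusted p of 0.68. Without control 1 it was -2.02, with a limma adjusted p of 0.90. The leading circle itself had a log2 fold change of -0.28 ± 0.32 (SE), with a limma adjusted p of 0.93. Its 95% interval of -1.03 to 0.47 was the narrowest among the 27. Without control 1 its value was 0.01.

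The circle from 0.0 to 9.4 kb had a log2 fold change of 1.43 ± 0.79 (SE), with an unadjusted p of 0.11 and a limma adjusted p of 0.68. That value rests on the 0 listed in control 1. Without control 1 the log2 fold change was 0.25, with a limma adjusted p of 0.91. Without control 2, which leaves only the control library listed at 0, it was 2.61, with a limma adjusted p of 0.042. It was the single Dnah8 circle to pass the threshold in any of the alternatives run. The circles at 48.3 to 59.9 kb and 58.6 to 77.1 kb, both listed at 0 in the controls, passed the filter only through the triptolide libraries, so no p is given for them. The circle at 51.1 to 59.9 kb, one of the 2 higher without overlap, had an unadjusted p of 0.58 and a limma adjusted p of 0.98.

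**Figure D4:**
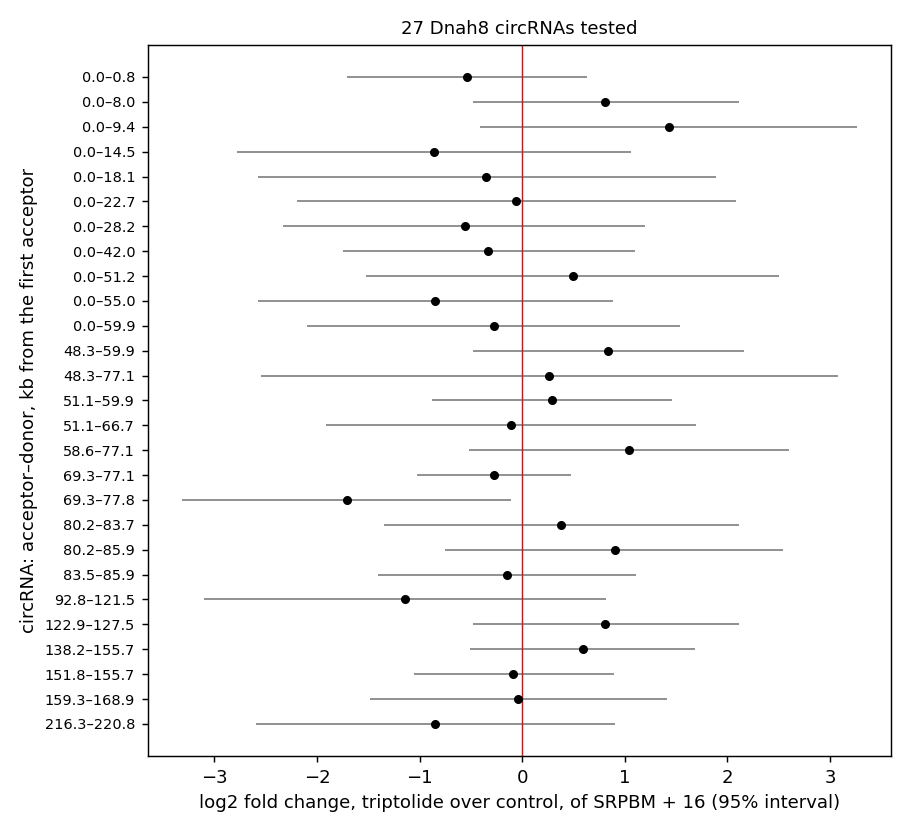
Log2 fold change (triptolide over control, on log2(SRPBM + 16)) of the 27 tested Dnah8 circRNAs, with points for the limma estimate and bars for its 95% interval. Estimates lie on both sides of 0 around a median of -0.09, and the narrowest bar, -1.03 to 0.47, belongs to the leading circle. The 4 circles listed in triptolide libraries alone are included, and their sign was fixed by the filter.

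Set beside other hosts, Dnah8 stood out by the number of circles on its first acceptor and not by the share. Among the 184 hosts with at least 10 circRNAs, the 17 circles on the most used end of Dnah8 were the highest number, followed by 14 at Gm7133, and the median was 5. As a share of the host's circles this was 33.3%, rank 109 of 184, beside a median of 36.4%. At least 1 shared end was found for 92.2% of the Dnah8 circles, rank 111, beside a median of 95%. The leading circle held 52.7% of all Dnah8 junction reads, rank 35, beside a median of 35.2%. In total reads, 1464, Dnah8 ranked 9. These ranks are a description, since the gene had been chosen for its number of circles.

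**Figure D5:**
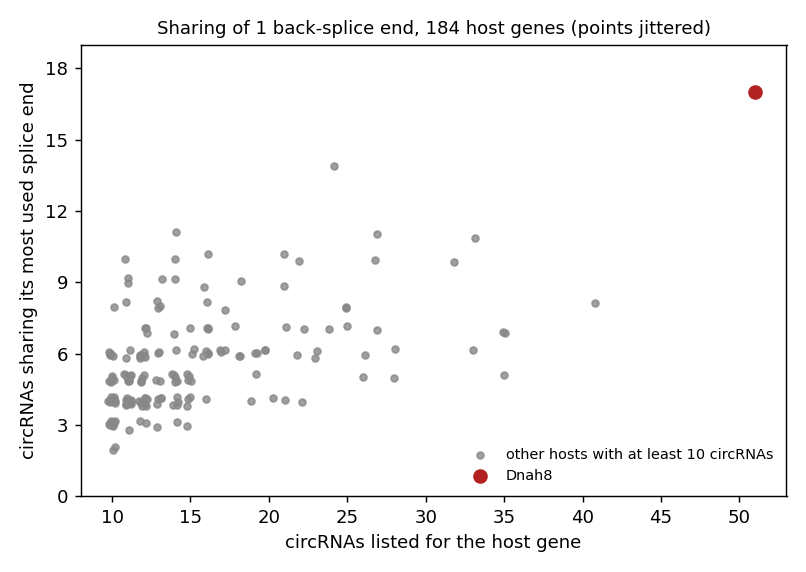
The 184 hosts with at least 10 circRNAs as jittered points, with the number of circRNAs on the horizontal axis and the number on the most used splice end on the vertical axis, and Dnah8 marked. Dnah8 lies at 51 circRNAs with 17 on 1 end, the highest of the 184 hosts on both axes.

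The hosts whose summed level varied over the 5 libraries most like that of Dnah8 were Tbc1d5, Dym and Vps13a. The measure was the Euclidean distance between profiles of log2(summed SRPBM + 16), each centred on its own mean, among the 183 other hosts with at least 10 circRNAs. It was 0.11 for Tbc1d5, 0.2 for Dym and 0.24 for Vps13a, beside a median of 0.8. Tbc1d5, which encodes a Rab GTPase-activating protein, summed to 1452, 2059 and 1418 SRPBM in triptolide A, B and C, against 2125 and 1755 SRPBM in controls 1 and 2. As for Dnah8, triptolide A and C were the lowest libraries. Tbc1d5 was picked for its likeness to Dnah8, so this order is no separate result. Over all circRNAs the summed SRPBM was 311833, 389709 and 305533 in triptolide A, B and C. In controls 1 and 2 it was 349463 and 359103, so triptolide A and C were the lowest there too. The values of Tbc1d5 and Dnah8 share the libraries and their scaling.

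The other axonemal dynein genes were read from a list of heavy chains, intermediate and light chains, docking factors and assembly factors. Of these, 23 were circRNA hosts and 17 were tested, and none was called in either direction by limma, with adjusted p values of at least 0.75, or by edgeR or DESeq2 on recovered reads. Above 0 were 8 and below 0 were 9 log2 fold changes, with a median of -0.10 beside -0.08 over all hosts. An unadjusted p under 0.05 was reached by 2 of the 17, Dnah3 and Ccdc151, beside 6.28% of all hosts tested. Both passed the filter through the controls alone, so nothing is read from that count. Dnah3, an inner arm heavy chain gene, was listed at 0 in every triptolide library, against 43 and 33 SRPBM in controls 1 and 2. Ccdc151, a docking factor gene, was listed at 0 in every triptolide library, against 26 and 24 SRPBM in controls 1 and 2. By role, the median log2 fold change was -0.27 for 8 tested heavy chains and 0.25 for 3 intermediate or light chains. It was -0.73 for 2 docking factors and 0.65 for 4 assembly factors. The medians and the numbers of each sign include Dnah3 and Ccdc151. They also include Dnaaf1, at 0, 17 and 26 SRPBM in triptolide A, B and C and listed at 0 in both controls. The sign of a host listed in 1 group alone was fixed by the filter, so nothing is read from these values either.

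Among the heavy chains, levels near that of Dnah8 were found for Dnah7a, Dnah7b and Dnah7c, which encode inner arm heavy chains. They hosted 81 circRNAs together. These genes are near-identical copies, so the assignment of junction reads among them is uncertain. Dnah7a summed to 2227, 3280 and 2205 SRPBM in triptolide A, B and C, against 1880 and 2654 SRPBM in controls 1 and 2. Dnah7b summed to 1584, 1812 and 1292 SRPBM in triptolide A, B and C, against 1872 and 1882 SRPBM in controls 1 and 2. Dnah7c summed to 2030, 2490 and 1804 SRPBM in triptolide A, B and C, against 873 and 2425 SRPBM in controls 1 and 2. Control 1 was the lowest library for Dnah7a and Dnah7c, while it was the second highest for Dnah8. Dnah2, another inner arm heavy chain gene, reached 47, 132 and 52 SRPBM in triptolide A, B and C, against 149 and 49 SRPBM in controls 1 and 2. Among the outer arm heavy chain genes of multiciliated cells, Dnah5 hosted no listed circRNA. Dnah9 and Dnah11 hosted 3 and 1, each in a single library as given above. Dnah17, also on the list of heavy chains, hosted 1 circRNA, at 26 SRPBM in triptolide B alone.

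The lncRNA table holds transcripts on the opposite strand at both ends of Dnah8. A known antisense lncRNA, 1700097N02Rik, lies across the Dnah8 start between 30622441 and 30628377 on the minus strand, in the deposited coordinates. Its 3 transcripts start at 30626905, 30627524 and 30628377. The promoter sequence is shown because the first of these starts lies within it. It is the 250 bases before the Dnah8 start on the plus strand, from RefSeq, build GRCm38.p6, at chr17:30626686-30626935, and the capitals mark a match to CAACGG, the core letters recognised by MYB family factors.
Dnah8 promoter: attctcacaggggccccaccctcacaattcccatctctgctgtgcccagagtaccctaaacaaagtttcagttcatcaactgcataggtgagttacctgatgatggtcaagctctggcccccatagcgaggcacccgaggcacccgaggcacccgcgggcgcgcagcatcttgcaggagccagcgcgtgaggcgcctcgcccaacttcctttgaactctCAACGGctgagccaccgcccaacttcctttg
The match begins at base 220 of the printed run, and the antisense start 30626905 is also base 220. The motif was chosen after the sequence had been read. It was searched as CAACGG and, on the other strand, CCGTTG, which do not overlap here with another match. At least 1 match was found in 1330 of 32851 promoter windows of the same length, or 4.05%. The match is a description, and binding was not measured.

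1700097N02Rik did not pass the test. Its CPM (expected counts scaled to the total of the lncRNA table) were 565, 504 and 470 in triptolide 3, A and B, against 595 and 451 in controls 1 and 2, where the letters of the lncRNA table do not match those of the circRNA table. The mean was 513 ± 48.5 CPM in triptolide libraries (SD, n = 3) and 523 ± 102 CPM in controls (SD, n = 2), a log2 fold change of -0.02 ± 0.19 (SE; edgeR adjusted p = 0.96). The difference between the controls was larger than that between the groups.

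Within the 3′ part of Dnah8 lies another antisense locus, XLOC_088197, from 30841963 to 30857528 on the minus strand. It spans the circle between 30851628 and 30856094. Its CPM were 61.2, 52.8 and 38.7 in triptolide 3, A and B, against 38.3 and 19.6 in controls 1 and 2. Every triptolide library was above both controls, with triptolide B and control 1 close together at 41 and 37 counts. The log2 fold change was 0.83 ± 0.34 (SE), with an unadjusted p of 0.022 and an edgeR adjusted p of 0.14. Without control 1 it was 1.35, with an edgeR adjusted p of 0.056. Of the 6888 lncRNA loci tested by edgeR, 7.27% passed the adjusted threshold and 21.7% had an unadjusted p under 0.05. No source used here states a strand setting for the counting, and without one Dnah8 reads could be counted at this locus.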

How the data were processed

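The circRNA table deposited by the authors gives a score per circRNA and library, SRPBM by its name, per the file headers. The lncRNA table deposited by the authors gives expected counts per transcript. The submitters' processing notes list bedtools 2.17.0, DESeq, HTSeq 0.6.1 and HISAT2 2.0.1 without roles, and name a human build. The coordinates are mouse: 9708 of 9796 circRNAs (99.1%) lay inside their host in RefSeq's GRCm38.p6 table, all 51 Dnah8 circles included. That table served for names, neighbours and the promoter sequence.

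Reads were recovered with the smallest value above 0 in each library taken as 2 reads. On that basis each deposited SRPBM value above 0 equalled a whole number of reads times a step per library, truncated to a whole number. Of the circRNA columns, 3 share 1 triptolide header, and of the lncRNA columns 2 do, so these libraries carry letters. A further 15 per-sample columns were not used. circRNAs without a host, 1598 in number, stayed out of host sums.

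The limma fit (version 3.58.1, trend, R 4.3.3) took circRNAs or host sums above 0 in at least 2 libraries, on log2(SRPBM + 16), triptolide minus control, with Benjamini-Hochberg adjustment over the whole table and a threshold of 0.05. On that scale the fold changes of low circRNAs are understated. Expected counts were rounded, summed per locus and tested with edgeR 4.0.16 (TMM, filterByExpr, quasi-likelihood). A value per library was tested by exact permutation (two-sided) of all 10 possible assignments. DESeq2 1.42.0 and edgeR on recovered reads, other pseudocounts and filters, and leaving out libraries were alternatives. The scripts were tested on simulated data. The Dnah8 circles, gene lists and tests were chosen with earlier results of these data known. Circles given by library were those listed in all 5 libraries, the 12 highest by the mean of the group means, those without overlap and, per direction, the 3 with the smallest p.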

Additional observations from a re-analysis of the deposited data

How the results depend on the processing

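No Dnah8 circRNA was called under pseudocounts of 1 or 50, with no filter or only circRNAs above 0 in all 5 libraries, after rescaling to the circRNA total, by limma without trend, or by edgeR or DESeq2 on recovered reads. Leaving out each library in turn gave 0 to 1 called Dnah8 circRNAs and 0 to 1 called axonemal dynein hosts. Both calls came without control 2, where the remaining control was listed at 0 for many circRNAs: the circle from 0.0 to 9.4 kb (log2 fold change 2.61, limma adjusted p = 0.042) and Dnah7c (limma adjusted p = 0.0037). In those fits the lone control is assumed to vary like the triptolide libraries. The log2 fold change of the Dnah8 sum stayed below 0, between -0.47 and -0.13 without 1 library and between -0.26 and -0.17 under the others. The difference in the number listed was -5.5 to -2.0 without 1 library and -0.333 with at least 3 reads. Without 1 library the acceptor share differed by -2.3 to -0.75 and the donor share by -0.457 to 2.33 percentage points. As shares of the number of circles listed, in place of SRPBM, the differences were -3.4 and 1.64 percentage points. Signs turned without control 1 for the leading circle (0.01) and 1700097N02Rik (0.17), and for 1700097N02Rik also without triptolide B (0.07). Without 1 library, the leading circle lay between -0.58 and 0.01, 1700097N02Rik between -0.17 and 0.17, the circle from 69.3 to 77.8 kb between -2.04 and -1.2 and XLOC_088197 between 0.45 and 1.35. The cause was not tested. No paired analysis was possible because the triptolide columns of the circRNA table share 1 header and those of the lncRNA table share fewer than 2 numbers with the controls. Most circles hold few reads, and 95% intervals of single circles reached 0.75 to 2.82 on the log2 scale to either side.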

Other observations

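Around Dnah8, the neighbouring gene Btbd9 hosted 5 circRNAs, while Glo1 and Glp1r hosted none in the table. The main Btbd9 circle, from 30513556 to 30530365, was listed at 95, 124 and 69 SRPBM in triptolide A, B and C, against 140 and 174 SRPBM in controls 1 and 2. Both controls lay above every triptolide library, as for 10.5% of all circRNAs tested, so nothing is read from that order. The summed level of Btbd9 had a log2 fold change of -0.39, with a limma adjusted p of 0.93.

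Downstream of the last Dnah8 circle, the intergenic lncRNA locus XLOC_084424, from 30879901 to 30884131, had 28, 14 and 4 expected counts in triptolide 3, A and B, against 19 and 40 in controls 1 and 2. Its log2 fold change was -0.91, with an edgeR adjusted p of 0.29.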
